A study of Mus musculus with 12 samples.

Results

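The COMPASS complexes of mammals methylate lysine 4 of histone H3 at promoters and enhancers, and their 10 shared and catalytic subunits are encoded by Ash2l, Wdr5, Rbbp5, Dpy30, Kmt2a, Kmt2b, Kmt2c, Kmt2d, Setd1a and Setd1b. Around these 10 of 21755 protein-coding genes on chromosomes 1 to 19 and X, the H3K27me3 sites were located. A site was assigned to a member if it overlapped the gene body extended by 20 kb on both sides. This took 30 of the 101389 sites in the list used here, which is that of the second H3K27me3 experiment of the study. Among the members, only Ash2l had a site in the gene body or within 1 kb of a transcription start site (TSS). This TSS was that of an upstream transcript without a CpG island. The larger of the 2 body sites was in the gene only through the same transcript, and the other had the smallest width in the list, 200 bp. At least 1 site in the extended gene was found for 8 of the 10 members. Of all protein-coding genes, 26.9% carried a promoter site by this distance, 30.6% one in the gene body and 61.5% one in the extended gene, and with 10 members these counts do not set the members apart. No H3K27me3 site lay within the bodies of the other 9 members.

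ASH2L, WDR5, RBBP5 and DPY30 form the core module that stimulates every KMT2 methyltransferase. KMT2A and KMT2B (MLL1 and MLL2), KMT2C and KMT2D (MLL3 and MLL4), and SETD1A and SETD1B are the alternative catalytic subunits. H3K27me3, the trimethylation of lysine 27 of the same histone, is deposited by Polycomb repressive complex 2 (PRC2). Broad domains of it cover many silent genes of other lineages, and trithorax proteins such as those of COMPASS are known as the counterpart of Polycomb at developmental genes.

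The sites came from a ChIP-seq experiment in immortalized mouse embryo fibroblasts (iMEF cells), with 8 H3K27me3 libraries. These were 2 of untreated cells and 2 for each of the dTAG treatments of 16 h, 24 h and 48 h, next to 2 input libraries of untreated cells and 2 of the 48 h treatment. All groups shared the same modification. Their floxed Ash2l alleles had lost exon 4 through an inducible Cre recombinase, and a lentiviral construct supplied human ASH2L with an N-terminal FKBP12F36V tag, which the PROTAC dTAG-13 connects to a ubiquitin ligase so that the fusion protein is degraded. The cells were clones grown by limiting dilution, and the study names the clone NG3 for its histone ChIP-seq, so that other clones are not represented. The list joins the sites found over all samples and gives a position for each but no value for any library. From this list alone, a difference in H3K27me3 at these genes between untreated and treated cells could therefore not be tested. The study also made a separate list of the sites it found changed at each time point, which was not used here. Nor was the list of sites from its first H3K27me3 experiment. The depth each library reached is not given by the list, and the study states only the minimum it planned for. A gene without a site is one at which the authors' peak caller reported none in this experiment, which does not show that the mark was absent.

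The promoter site of Ash2l and 2 CpG-rich member promoters without a site are shown with every CpG in capitals, since PRC2 is found at many CpG islands and all 10 members had a CpG island at a TSS. Each sequence is from GRCm38.p6 on the reverse strand, from which all 3 genes are transcribed, and is written 5′ to 3′. The first is the whole Ash2l site, chr8:25848512-25848766, which is 255 bp long, lies in no annotated gene and holds 9 CpGs. The second, chr9:44881297-44881539, holds the 243 bp just before Kmt2a with 29 CpGs. The third, chr5:25498784-25499033, holds the 250 bp before Kmt2c with 48 CpGs.
Ash2l promoter site: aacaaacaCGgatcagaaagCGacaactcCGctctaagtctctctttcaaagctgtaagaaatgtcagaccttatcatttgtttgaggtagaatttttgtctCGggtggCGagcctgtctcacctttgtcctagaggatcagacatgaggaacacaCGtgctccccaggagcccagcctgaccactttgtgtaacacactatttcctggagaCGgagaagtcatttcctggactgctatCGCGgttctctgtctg
Kmt2a promoter: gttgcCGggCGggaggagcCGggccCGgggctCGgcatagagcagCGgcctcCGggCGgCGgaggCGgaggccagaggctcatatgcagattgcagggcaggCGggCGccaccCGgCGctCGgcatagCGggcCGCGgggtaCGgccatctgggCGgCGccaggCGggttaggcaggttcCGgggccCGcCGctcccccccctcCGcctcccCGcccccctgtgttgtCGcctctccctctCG
Kmt2c promoter: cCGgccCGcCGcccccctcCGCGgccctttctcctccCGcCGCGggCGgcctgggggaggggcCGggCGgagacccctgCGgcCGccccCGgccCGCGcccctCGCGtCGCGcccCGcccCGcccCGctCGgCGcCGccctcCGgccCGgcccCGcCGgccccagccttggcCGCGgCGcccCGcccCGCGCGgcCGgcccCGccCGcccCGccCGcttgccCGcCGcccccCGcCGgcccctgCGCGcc

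Among the 10 members, 1 had a promoter site, defined as a site that reached to within 1 kb of an annotated TSS by at least 1 bp. The share of 10.0% had an exact 95% confidence interval of 0.253% to 44.5% and stood beside 26.9% of all protein-coding genes (5848 of 21755). The gene body held a site in 1 of 10 members, with the same interval, compared to 30.6% of all protein-coding genes (6658). The extended gene held one in 8 of 10 members (80.0%, interval 44.4% to 97.5%), compared to 61.5% of all (13383). All 3 intervals include the share of all genes, so these counts do not set the members apart. The intervals cover the counting of genes only and treat the genes as independent.

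**Figure D1:**
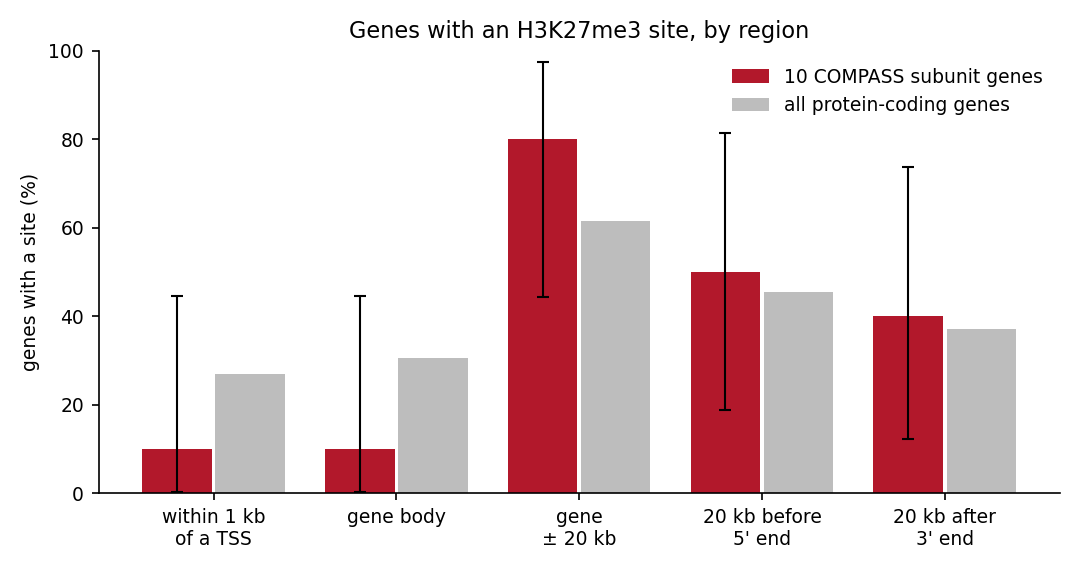
Share of genes (%) with at least 1 H3K27me3 site within 1 kb of a TSS, in the gene body, in the gene extended by 20 kb, and in either flank, for the 10 COMPASS subunit genes (red, with exact 95% intervals) and 21755 protein-coding genes (grey). The red bars are below the grey ones for promoter and gene body (10.0% each) and above for the extended gene (80.0%), and each interval includes the grey value.

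The sites of the members were located mostly outside the genes. Of the 30 sites, 2 were in a gene body (both in Ash2l), 16 were in the 20 kb before the 5′ end of 5 members and 12 were in the 20 kb after the 3′ end of 4 members. A site in the 5′ flank was found for 45.5% of all protein-coding genes and a site in the 3′ flank for 37.2%, close to the 5 and 4 of 10 members. Of the 8 members with a site in the extended gene, 7 (87.5%) had none in the gene body. Among the 13383 protein-coding genes with a site in the extended gene, 6725 (50.3%) had none in the body. In the groups of related genes described at the end, this was the case for 7 of 8 genes for subunits of some KMT2 complexes (87.5%), 4 of 4 H3K4 demethylase genes and 5 of 6 PRC2 genes (83.3%), and nothing particular to the members is read from it. Of the 28 flank sites, 24 were in or overlapped another annotated gene and 4 overlapped none.

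**Figure D2:**
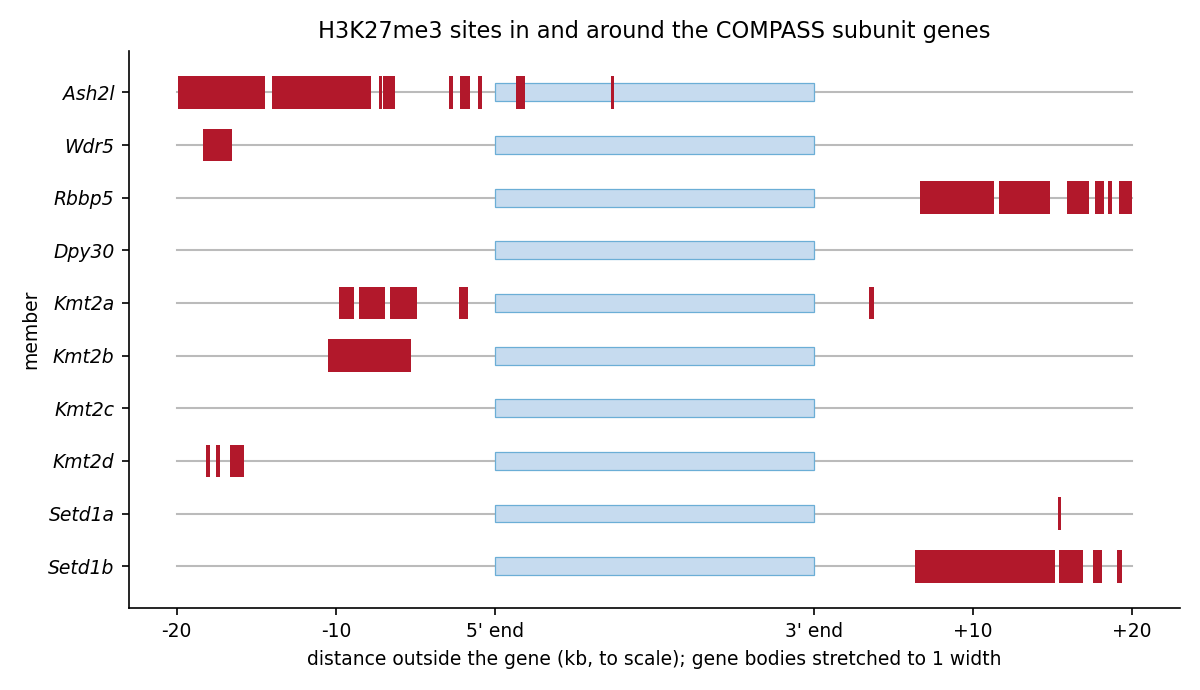
Position of the H3K27me3 sites (red) along each member, drawn in the direction of transcription with 20 kb flanks to scale (kb) and gene bodies (blue) stretched to 1 width. Sites enter the gene body of Ash2l alone, Dpy30 and Kmt2c have none, and the widest stretches flank Ash2l, Rbbp5, Kmt2b and Setd1b.

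CpG islands were searched around each TSS with a minimum length of 500 bp, a minimum GC content of 55% and a minimum observed to expected CpG ratio of 0.65. They were present in 10 of 10 members and in 13049 (60.0%) of all protein-coding genes. Genes with such an island had a promoter site in 26.3%, a site in the body in 27.7% and a site in the extended gene in 66.9%. In the 6845 island genes whose length was within the range of the members, these shares were 26.5%, 28.8% and 65.9%.

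Ash2l, the core subunit that was depleted in these cells, had the most sites of the members, 9 in all. The gene is at chr8:25815996-25847694 on the reverse strand (31699 bp, 11 annotated transcripts). Its promoter site was 818 bp before the TSS of 1 transcript, Ash2l-204, whose start is at the 5′ end of the gene and has no CpG island. The same site was 857 bp from the 5′ end of the neighbour Kcnu1, a potassium channel of sperm, which is transcribed in the opposite direction from a start 1929 bp away. The transcript Ash2l-201, which the annotation marks as principal, starts further into the gene, within a CpG island, and its TSS was 3898 bp from the nearest site. The assignment of a promoter site to Ash2l therefore rested on the upstream TSS, which is 818 bp away. With principal TSSs, 0 of 10 members had a promoter site, compared to 24.3% of all protein-coding genes (5297 of 21755).

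The remaining 6 flank sites of Ash2l overlapped Kcnu1 and extended through its first part. Together with the promoter site they covered 68.9% of the 20 kb before Ash2l, while the 20 kb after its 3′ end, where the steroid transporter gene Star is located, had none. The 2 widest, of 6218 bp and 5468 bp, began 7801 bp and 14462 bp from the Ash2l TSS. Kcnu1 itself held 23 sites over its body, which covered 40.6% of it. In the body of Ash2l, covered to 3.5%, the larger site spanned 910 bp (chr8:25844685-25845594) in the intron between the upstream start and the CpG island start. It was before the start of Ash2l-201, and so in the gene body only through Ash2l-204.

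**Figure D3:**
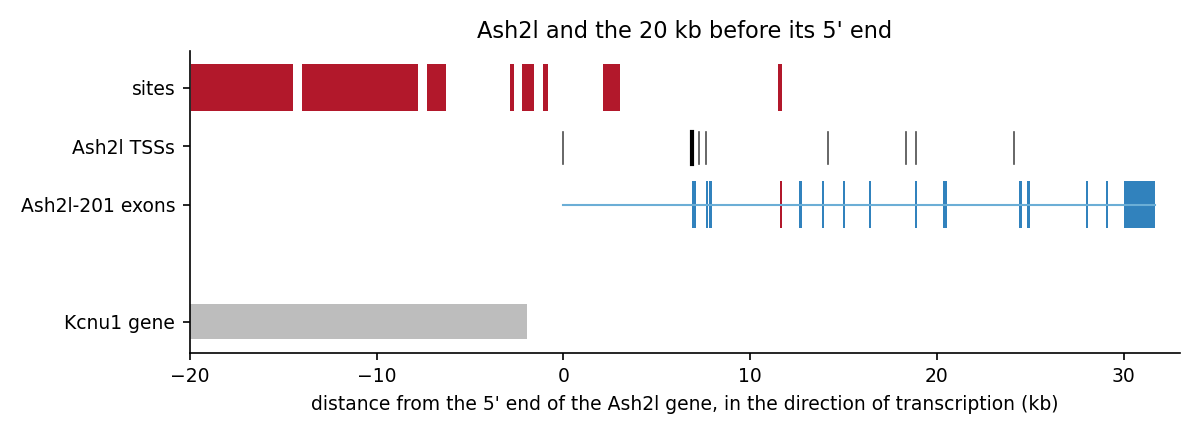
The Ash2l gene to scale, with distance from its 5′ end (kb) in the direction of transcription. Rows show the H3K27me3 sites, the annotated TSSs (thick line: principal transcript), the exons of Ash2l-201 (red: exon 4, under a site) and the neighbour Kcnu1, over which most of the sites before the 5′ end are located. The smallest features are drawn with a minimum width.

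The second site in the body of Ash2l had 200 bp, the smallest width in the list, and covered exon 4 of Ash2l-201. Exon 4 is also the number of the exon that was removed from the endogenous gene in these cells, which is why its sequence is shown. The site, chr8:25836000-25836199, included all 89 bp of the exon (chr8:25836000-25836088) and 111 bp of the intron before it. Its first base was also the last base of the exon as transcribed, or 1 bp beyond it if the starts in the list are counted from 1. The other 15 exons of this transcript had 0 bp under a site, and the next nearest to one was exon 5 at 946 bp. In all 7 Ash2l transcripts with an exon at this place the exon had the same boundaries, although it was exon 4 in 5 of them. The sequence is the site on the reverse strand of GRCm38.p6, 5′ to 3′, with exon 4 in capitals.
Ash2l exon 4 site: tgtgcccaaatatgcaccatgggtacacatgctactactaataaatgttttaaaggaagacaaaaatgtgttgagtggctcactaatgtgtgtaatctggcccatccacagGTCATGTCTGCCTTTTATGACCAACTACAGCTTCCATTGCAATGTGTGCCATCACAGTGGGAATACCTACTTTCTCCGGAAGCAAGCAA

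The list does not tell in which libraries this site was found, and its origin was not tested. That the numbering of the removed exon follows that of Ash2l-201 was not tested either. If it does, the exon under this site was missing from the endogenous gene in these cells. Over the whole list, 80 of 101305 sites on chromosomes 1 to 19 and X (0.079%) had an end exactly on the end of an annotated exon, as did 5 of the 2716 sites of 200 bp (0.184%). A first base at a multiple of 1000, which this site has as well, was found in 104 sites (0.103%).

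The other core subunits had no promoter site. Wdr5, whose product is the WD40 protein that reads the H3 tail, had 1 site in its extended gene. It spanned 1849 bp in an intron of Brd3, a gene of the BET bromodomain family, 16507 bp before the Wdr5 TSS. It covered 9.24% of the 5′ flank. Brd3 had 3 sites over 6.1% of its body and none within 1 kb of a TSS.

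Rbbp5, which codes for a further WD40 subunit, had 6 sites in its 3′ flank and none before or within the gene. All 6 were in or overlapped Cntn2, the gene of the axonal adhesion molecule contactin 2, and they covered 53.8% of this flank. Cntn2 was covered to 83.8%, and the widest of these sites spanned 21825 bp and ran past the 20 kb flank. The nearest site was 6685 bp after the 3′ end of Rbbp5. This was 8612 bp from an internal TSS but 34978 bp from the principal one.

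Dpy30, the smallest core subunit, was the member farthest from any site. Its nearest site, of 373 bp, was 119043 bp from a TSS and overlapped Nlrc4, an inflammasome gene. The stretch without a site around Dpy30 was 392815 bp long, and 79.1% of all protein-coding genes had a shorter one or a site in the body. The distance to the nearest site was shorter for 84.9% of all protein-coding genes. No base of its extended gene was an assembly gap, and 44% was repeat-masked, the highest value of the members, for which it ranged from 15.5%.

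Among the catalytic subunits, 0 of 6 had a promoter or intragenic site and 5 of 6 had a site in the extended gene, next to 26.9%, 30.6% and 61.5% of all protein-coding genes. With 6 genes nothing is read from the difference. Kmt2a had the nearest one. A site of 593 bp (chr9:44883003-44883595) began 1707 bp before its TSS, with 20 CpGs and an observed to expected CpG ratio of 0.549, compared to a median ratio of 0.182 over all sites. Further from the gene were 3 wider sites of 1738, 1618 and 949 bp, which overlapped no annotated gene, and the 4 together covered 24.5% of the 5′ flank. Another site of 294 bp was located 3494 bp after the 3′ end, in coding sequence of Ttc36 and an exon of Gm48702, and within 1 kb of the TSS of Tmem25. The 77942 bp of Kmt2a between them held none.

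Kmt2b had 1 site, which spanned 5203 bp at a distance of 5308 bp before its TSS. This site covered the 5′ part of Zbtb32, a zinc finger gene of lymphocytes, and reached across its TSS. It amounted to 26% of the 5′ flank of Kmt2b and to 52.8% of Zbtb32.

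Kmt2c and Kmt2d code for the enzymes known for monomethylation of H3 lysine 4 at enhancers. Kmt2c, the longest member with 226986 bp, had no site in the extended gene. Its nearest site of 700 bp was 35482 bp before the TSS in no annotated gene, and the nearest protein-coding gene to this site was Cct8l1 at 16238 bp. The stretch without a site around Kmt2c was 326773 bp long. Kmt2d had 3 sites of 905, 283 and 218 bp, the first of them 15761 bp before its TSS. All 3 were in introns of Rhebl1, a gene of a small GTPase related to Rheb, and covered 7.03% of the flank.

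Setd1a and Setd1b code for the enzymes known for bulk trimethylation of H3 lysine 4. Setd1a had a single site of 217 bp, located 15333 bp after its 3′ end. This was 36879 bp from the nearest Setd1a TSS. Setd1b had 4 sites in the 3′ flank, which covered 55.7% of it. The widest spanned 8792 bp over Hpd, a gene of tyrosine catabolism, which was covered to 70.9%. All 4 were also in introns of Psmd9, a proteasome assembly chaperone gene, and of Gm26745. The nearest was 11604 bp from an internal Setd1b TSS and 32028 bp from the nearest principal one.

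Ordered by the distance from a TSS to the nearest site, the members ran from Ash2l (818 bp), Kmt2a (1707 bp), Kmt2b (5308 bp), Rbbp5 (8612 bp) and Setd1b (11604 bp) through Kmt2d (15761 bp), Wdr5 (16507 bp), Kmt2c (35482 bp) and Setd1a (36879 bp) to Dpy30 (119043 bp). The list gives no replicate error for these distances. Their median was 13682.5 bp, compared to 13192 bp over all protein-coding genes, of which the middle 50% had distances of 567.5 to 58723.5 bp. The median depended on the TSSs used, since several distances were to internal TSSs. With principal TSSs it was 24267.5 bp for the members and 16079 bp for all genes, and with the 5′ end of each gene it was 24649.5 bp and 15891 bp. A shorter distance was found for 26.2% of all protein-coding genes in the case of Ash2l and for 67% in the case of Setd1a. A TSS covered by a site, as in 21.37% of all protein-coding genes, was not found in any member.

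**Figure D4:**
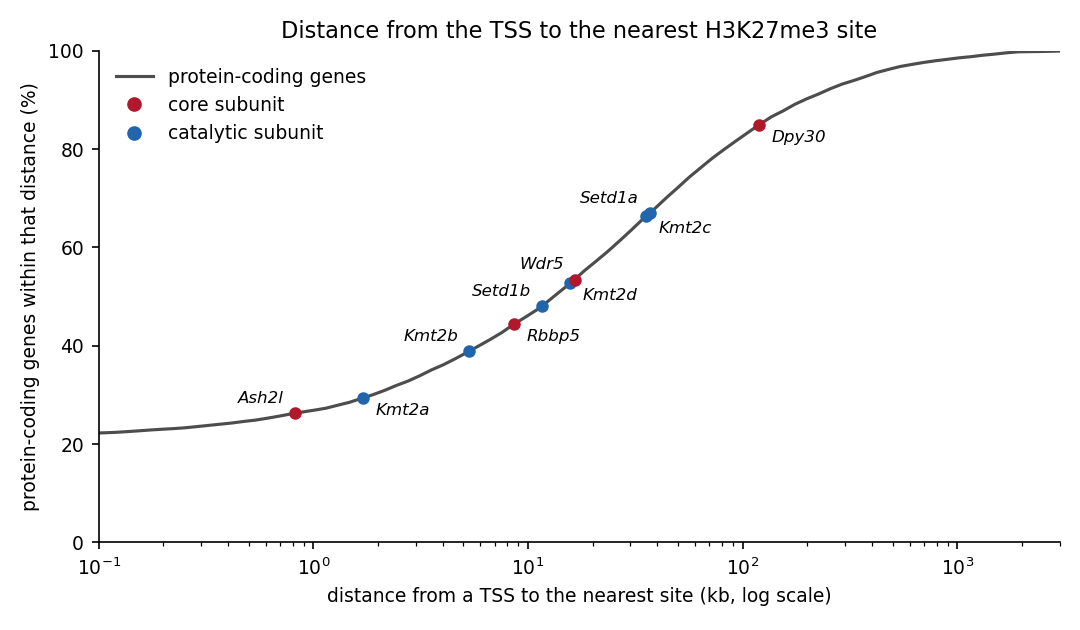
Distance from a TSS to the nearest H3K27me3 site (kb, log scale) against the share of protein-coding genes within that distance (%). Points mark the core (red) and catalytic (blue) subunits on the curve of all genes. The members are spread from 818 bp for Ash2l to 119043 bp for Dpy30, on both sides of the median of all genes, and core and catalytic subunits are interspersed.

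The sites of the members had a median width of 851.5 bp, a median GC content of 48.0% and a median CpG ratio of 0.225. For all sites these medians were 677 bp, 47.7% and 0.182. A width of at least 1 kb was found in 12 of the 30 sites (40.0%) and in 37.4% of all. The smallest width of 200 bp was found in 2 of the 30 (6.67%), in Ash2l exon 4 and in a Cntn2 intron, and in 2.68% of all sites.

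RefSeq promoter windows on GRCm38, from 250 bp before to 50 bp after a start, were matched for 7 of the 10 members with 10 windows in all, and not for Ash2l, Kmt2b and Setd1b. The windows held from 1 CpG (the upstream start of Dpy30) to 56 CpGs (Kmt2c), with a median of 32 compared to 14 over 20061 windows of protein-coding genes. Dpy30 entered this median more than once, also with overlapping windows (39, 34 and 30 CpGs). The 20061 windows belonged to 16433 genes. The Kmt2c window had more CpGs than 99.8% of these and the Kmt2a window, with 36, more than 91.6%.

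Groups of related genes were described in the same way. Of 11 genes for subunits found in some of the KMT2 complexes, 0 had a promoter site, 1 an intragenic site (Hcfc1, a cofactor of SETD1 and MLL complexes) and 8 a site in the extended gene. The distance from a TSS was smallest for Paxip1, a subunit of the KMT2C and KMT2D complexes (2702 bp), and largest for Men1, which codes for menin (151863 bp). The whole extended gene of Men1 is repeated on a patch sequence of GRCm38.p6 at an identity of at least 99%, which was the case for no part of the 10 members, and the part of this in the missing sites was not tested. Of 5 H3K4 demethylase genes, 0 had a promoter or intragenic site and 4 had one in the extended gene, with distances from 1632 bp (Kdm5c) to 30976 bp (Kdm5a). Of 11 PRC2 genes, 2 had a promoter site, 1 an intragenic site and 6 a site in the extended gene. Of the PRC2 genes with a promoter site, Ezh1, a catalytic subunit, had it 884 bp before its TSS, and Phf19, an accessory subunit, had a site of 9022 bp across its TSS. The PRC2 gene farthest from a site was Rbbp7, which codes for a histone-binding subunit (71847 bp).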

How the data were processed

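H3K27me3 ChIP-seq was performed on iMEF cells, with groups taken from the sample titles. Per its methods, reads were trimmed by the authors (Trim Galore), aligned to mm10 (GRCm38.p6, BWA), filtered with samtools, and merged over replicates with Picard. Libraries were brought to the lowest coverage, and MACS was used to call broad peaks. The submitters' processing notes also name deepTools and DESeq2. Versions of these tools, the cutoffs for calling peaks and the joining of peaks across samples are not given in the sources used here. The deposited list holds genome positions only, so no test between groups was run, and 0 columns of per-sample values were left unused.

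Starts were read as counted from 0, since the smallest width was then 200 bp, and positions are printed counted from 1. Genes and TSSs were taken from GENCODE M21, sequence from GRCm38.p6 and promoter windows from RefSeq. Distances, overlaps and CpG islands were computed with Python 3.11.15, numpy 2.4.6 and pandas 2.3.3, and exact intervals with scipy 1.17.1. Functions were tested on simulated data. Patch sequences were aligned with minimap2 2.31-r1302 (blocks of at least 5000 bp). Sites on scaffolds (84) were left out of shares by sequence, and chromosome Y was not analysed here. Alternatives varied site width, merging, windows, flanks, TSS sets and the gene background. The members, gene lists and settings were chosen with earlier results of these data known. Named genes were the members, genes overlapped by their sites or nearest to the nearest site, and, from the lists of related genes, those with a promoter site, the nearest and the farthest. The gene overlapped by 1 of the sites is not reported here. Genes with an intragenic site and the neighbours Star and Tmem25 were named after their values were seen.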

Additional observations from a re-analysis of the deposited data

How the results depend on the processing

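Of 44 alternatives run for results on the members, 31 left the count within 1.5 times, or the median distance between the distances of Kmt2a (1707 bp) and Setd1a (36879 bp). This range is wide, and a median of 24649.5 bp was still inside it. The number of members with a promoter site was 0 with sites of at least 500 bp, with sites of at least 1000 bp, with a window of 500 bp and with TSSs of principal isoforms only (an alternative chosen after seeing the data), and it was 2 with windows of 2 kb and 3 kb, since Kmt2a then entered. The number with an intragenic site was 0 with sites of at least 1000 bp. The number with a site in the extended gene was 5 with flanks of 10 kb. The sites in the extended genes numbered 12 with sites of at least 1000 bp, 14 and 11 when sites less than 1000 and 3000 bp apart were merged, and 16 and 68 with flanks of 10 and 50 kb. For other windows and flanks, merged sites and sites of at least 500 bp, shares of all protein-coding genes were not computed. The member counts at these settings therefore have no background beside them. The median distance ranged up to 24649.5 bp, with the 5′ end of each gene as its only TSS. Over all protein-coding genes, the shares with a promoter, intragenic and extended-gene site were 22.4%, 25.1% and 49.7% with sites of at least 1000 bp. The promoter share was 24.3% with principal isoforms, and with island genes only the intragenic and extended shares were 27.7% and 66.9%. The counts by width, merging, window and flank moved by the construction of those alternatives, and the cause of the shift with island genes was not tested.

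No paired analysis was possible because the list gives no value for a library. For the same reason no library was left out in turn. The depth behind a site is not given by the list, and a site found in 1 group cannot be told from one found in all. With 10 genes, the exact interval of a count of 1 reaches 44.5%.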
